A study of Mus musculus with 2 samples.

Results

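Of the 17216 genes listed in at least 1 of 2 RNA libraries, 9 encode the receptor chains through which blood cells read erythropoietin, the colony-stimulating factors, interleukin-3 and interleukin-6. They were taken by gene symbol from a fixed list: Epor, Csf3r, Csf1r, Csf2ra, Il3ra, Csf2rb, Csf2rb2, Il6ra and Il6st. All 9 were listed in both libraries. Each library held RNA of C57BL/6 mouse marrow cells gated as long-term haematopoietic stem cells, the cells that sustain blood for life. The gate kept Sca-1, c-Kit and CD150 and removed CD48 and lineage markers. One library came from wild type (WT) littermates and the other from Ccp3-/- mice, which lack CCP3, a cytosolic carboxypeptidase that removes glutamate from proteins. The labels give no age, sex, number of pooled animals or deleted part of the gene.

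With 1 library per genotype the genotypes could not be tested against each other, and the values below compare 2 libraries. Levels are FPKM, the authors' fragment counts scaled for transcript length and library depth, which are per length and so can be set side by side between genes. Depth was about 15.4 M reads in the WT library and 14.2 M in the other, as estimated from the spacing of low FPKM values, and each interval below is a 95% interval from such estimated reads that covers counting error only. Agbl3, which encodes CCP3, stood at 1.11 FPKM in the WT library and 0.66 FPKM in the library labelled Ccp3-/-, which rests on about 23 and 15 reads (ratio 0.595, interval 0.289 to 1.19). Transcripts outside the deleted part would still be counted, so this did not check the label, and every direction below rests on that label. Slamf1, the gene of the CD150 that the gate kept, stood at 2.14 and 3.40 FPKM, and Cd48, whose protein the gate removed, at 136 and 114 FPKM, so RNA of the surface protein the gate removed was abundant and RNA of the one it kept was low. Xist was listed at 5.38 and 44.2 FPKM and 4 Y-linked genes summed to 68.76 and 21.45 FPKM, so sex-linked RNA differed between the libraries, and its part in the results below was not tested.

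Cytokine receptors of this kind have no kinase of their own, with the exception of the receptor for macrophage colony-stimulating factor. A ligand brings chains together, and JAK kinases held on the inner part of the chains then phosphorylate STAT factors, which enter the nucleus. Interleukin-3, interleukin-5 and granulocyte-macrophage colony-stimulating factor each bind an alpha chain of their own and share a beta chain, while interleukin-6 binds its alpha chain and signals through gp130. Haematopoietic stem cells carry few of the lineage receptors, which become more abundant as progenitors commit to the granulocyte, monocyte or red cell fate.

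The receptor chains were mostly higher in the Ccp3-/- library, led by the shared beta chain Csf2rb and the interleukin-6 alpha chain Il6ra. Of the 9, 8 were above the WT library, beside 50.8% of all genes tested, and Il3ra was below, a count that was the same under scaling to equal FPKM sums or equal upper quartiles and was 7 after the trend with transcript length was subtracted. The difference used for counting was log2(FPKM + 1) in the Ccp3-/- minus the WT library, a scale that damps ratios of low genes. Its median over the 9 chains was 0.31, beside 0.01 over the 11985 genes that averaged 1 FPKM or more. Chains were counted by size, as those averaging 1 FPKM or more whose levels were 1.5-fold or more apart on that scale, a rule met by 2 of the 9 chains upward (22.2%) and 0 downward. Among all 11985 genes 6.12% met the rule upward and 6.14% downward. These shares are also the background of the list counts below. The counting interval lay above a ratio of 1 for 6 chains (66.7%), below it for Il3ra alone (11.1%) and held 1 for Csf1r and Epor. Under scaling to equal sums it held 1 for Il3ra and Epor and lay above 1 for Csf1r, at 1.14 to 1.35. In all genes it lay above 1 for 31.1% and below 1 for 27.0%. At these depths such intervals are narrow, and none covers the variation between animals or sorts.

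**Figure D1:**
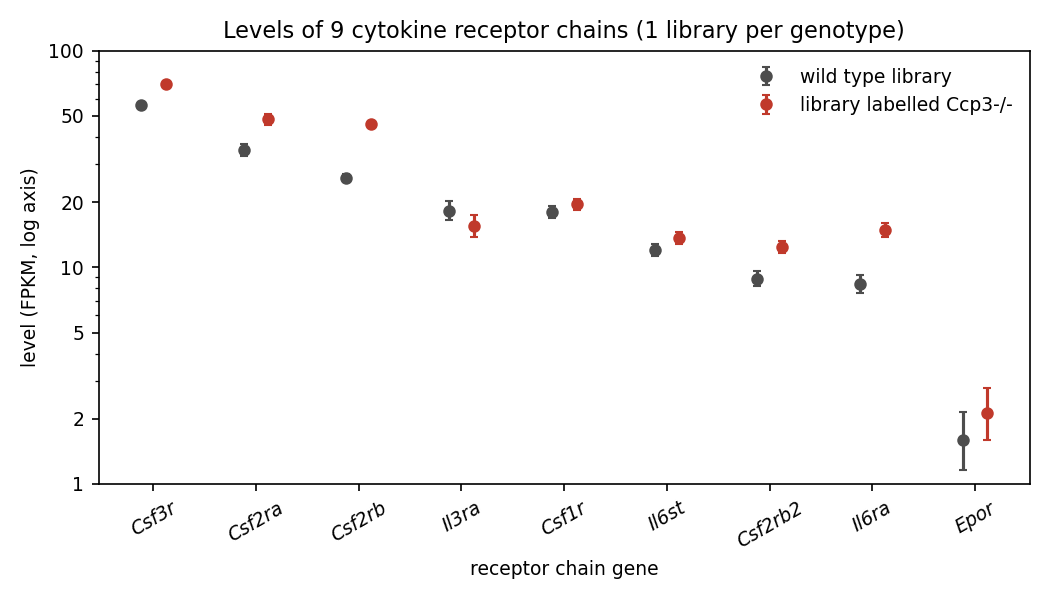
Level of each receptor chain in FPKM (log axis) in the WT library (grey) and the library labelled Ccp3-/- (red), with 95% counting intervals from estimated reads, ordered by the WT level. Csf3r is the highest chain at 56.2 and 69.9 FPKM, Epor the lowest at 1.60 and 2.12 FPKM, and Il3ra is the 1 chain that is lower in the library labelled Ccp3-/-.

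The order of the levels was led by Csf3r and ended by Epor in both libraries, a span of 35.1-fold in the WT and 33.0-fold in the Ccp3-/- library. In the WT library Csf3r was followed by Csf2ra, Csf2rb, Il3ra, Csf1r, Il6st, Csf2rb2, Il6ra and Epor. Among neighbours in that order, Il3ra and Csf1r (ratio 1.01, 0.898 to 1.14) and Csf2rb2 and Il6ra (1.06, 0.936 to 1.20) did not differ beyond counting error. In the Ccp3-/- library Csf2rb and Csf2ra did not differ beyond counting error, with a ratio of Csf2ra to Csf2rb of 1.05 (0.981 to 1.12). Il3ra, Il6ra, Il6st and Csf2rb2 there formed a run from 15.5 down to 12.4 FPKM in which no neighbours differed beyond counting error. Csf1r stood above that run by 1.26-fold over Il3ra (1.11 to 1.44). The trend with transcript length was not taken off in these orders. Summed over the 9 chains, the level was 184 FPKM in the WT and 242 FPKM in the Ccp3-/- library. In bulk samples like these, fewer cells of a type and less RNA per cell cannot be told apart.

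The receptors that work as pairs of 1 chain were led by Csf3r. Csf3r, the receptor of granulocyte colony-stimulating factor and the main receptor of neutrophil production, was listed at 56.2 FPKM in the WT library and 69.9 FPKM in the Ccp3-/- library. From about 3242 and 3708 reads this was a ratio of 1.24 (1.19 to 1.30). It was among the more abundant transcripts of both libraries, with 88.1% of the genes tested below it in the WT and 90.6% in the Ccp3-/- library. The authors listed 3 transcript models for this gene, 1 of them a non-coding RNA accession, as 1 value.

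Epor, the erythropoietin receptor on which red cell precursors depend for survival, was listed at 1.60 FPKM in the WT and 2.12 FPKM in the Ccp3-/- library. These values rest on about 44 and 54 reads, and the ratio of 1.32 had an interval of 0.873 to 2.02. A difference was therefore not detectable at this depth. Only 6.34% and 10.9% of the genes tested were below it. Red cell genes of the same libraries went both ways: of 15 erythroid markers 6 were past 1.5-fold downward and 2 upward, and their summed level was 1612.3 FPKM in the WT and 602.1 FPKM in the Ccp3-/- library. Globin genes carried that difference: Hba-a1, Hbb-bs and Hbb-bt summed to 1265.8 and 281.6 FPKM, and the other 12 markers to 346.5 and 320.5 FPKM, with 6 of the 12 above the WT level. Among the latter, Tfrc, the transferrin receptor gene, had a ratio of 1.68 (1.58 to 1.79), and Gata1, a red cell and megakaryocyte factor, 1.05 (0.861 to 1.27).

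Csf1r, a receptor tyrosine kinase that binds macrophage colony-stimulating factor and interleukin-34 and marks the monocyte lineage, was nearly level. It was listed at 18.0 FPKM in the WT and 19.5 FPKM in the Ccp3-/- library, a ratio of 1.08 (0.995 to 1.18) from about 1064 and 1066 reads. Its difference of 0.11 matched the median of 0.12 over 200 genes of similar length, so that it was −0.01 once that median was subtracted. Csf3r thus stood 3.12-fold above Csf1r in the WT library (2.91 to 3.35) and 3.58-fold in the Ccp3-/- library (3.34 to 3.84).

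The alpha chains that pair with the common beta chain did not go together: Csf2ra was higher, while Il3ra was lower by an amount that depended on the scaling. Csf2ra, the chain that binds granulocyte-macrophage colony-stimulating factor, was listed at 34.8 FPKM in the WT and 48.2 FPKM in the Ccp3-/- library, a ratio of 1.38 (1.27 to 1.51). Il3ra, the CD123 chain that binds interleukin-3, was listed at 18.2 and 15.5 FPKM, a ratio of 0.850 (0.728 to 0.991) from about 380 and 299 reads. Under scaling to equal sums the Il3ra ratio was 0.970 (0.831 to 1.13), which holds 1, and that of Csf2ra was 1.57 (1.45 to 1.72). The listed transcripts of both are short, with 1850 and 1394 bases, a class of length in which the median gene was lower under the Ccp3-/- label. For each, 200 genes of similar length had a median difference of −0.11 for Csf2ra and −0.15 for Il3ra. With those medians subtracted, Csf2ra stood at 0.56 and Il3ra at −0.07. The level of Csf2ra relative to Il3ra was 1.91 in the WT (1.69 to 2.16) and 3.11 in the Ccp3-/- library (2.74 to 3.54).

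The beta chain genes were both higher. Csf2rb, the beta chain shared by the receptors for interleukin-3, interleukin-5 and granulocyte-macrophage colony-stimulating factor, was listed at 25.9 FPKM in the WT and 46.0 FPKM in the Ccp3-/- library. The ratio was 1.78 (1.68 to 1.88) from about 1886 and 3100 reads, and 97.8% of the genes tested had a lower difference. Csf2rb2, a second beta chain gene of the mouse that serves interleukin-3 alone, was listed at 8.87 and 12.4 FPKM, a ratio of 1.40 (1.26 to 1.56). Both transcripts are long, 4776 and about 4510 bases, and genes of such length had a median difference of 0.16. With it subtracted, Csf2rb kept 0.65 and Csf2rb2 0.29.

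The genes of the beta chains arose by duplication and lie side by side on mouse chromosome 15, so reads from one can be assigned to the other. In the GENCODE transcripts that match the authors' RefSeq accessions, the coding sequences of 2688 and 2634 bases were identical at 95.2% of 2628 aligned bases. Of all 50-base windows of the Csf2rb transcript, 18.9% occurred unchanged in Csf2rb2, and of all 100-base windows 7.2% did. The read length is not given in the sources used here. The longest identical coding run, 242 bases from coding base 2083 of both genes, is shown because no read inside it can be assigned to either gene.
Csf2rb and Csf2rb2: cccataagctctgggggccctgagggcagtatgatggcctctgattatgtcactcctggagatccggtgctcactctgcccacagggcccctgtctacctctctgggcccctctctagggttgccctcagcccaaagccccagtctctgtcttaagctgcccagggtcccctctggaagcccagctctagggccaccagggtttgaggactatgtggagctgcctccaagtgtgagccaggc
The 90-base stretch in which the coding sequences differ most, from coding base 308 of Csf2rb and 311 of Csf2rb2, is shown with its 16 differing bases in capitals, as the kind of sequence by which reads could be told apart.
Csf2rb: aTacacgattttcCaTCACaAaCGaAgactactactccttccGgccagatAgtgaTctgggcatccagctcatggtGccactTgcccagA
Csf2rb2: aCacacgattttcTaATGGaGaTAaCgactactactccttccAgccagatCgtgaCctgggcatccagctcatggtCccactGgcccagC
The sum of both genes depends little on how shared reads were split, because the listed transcripts are similar in length. It was 34.7 FPKM in the WT and 58.4 FPKM in the Ccp3-/- library, a ratio of 1.68 (1.60 to 1.77), and met the 1.5-fold rule with a difference of 0.73. Csf2rb made up 74.5% of the sum in the WT and 78.7% in the Ccp3-/- library.

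**Figure D2:**
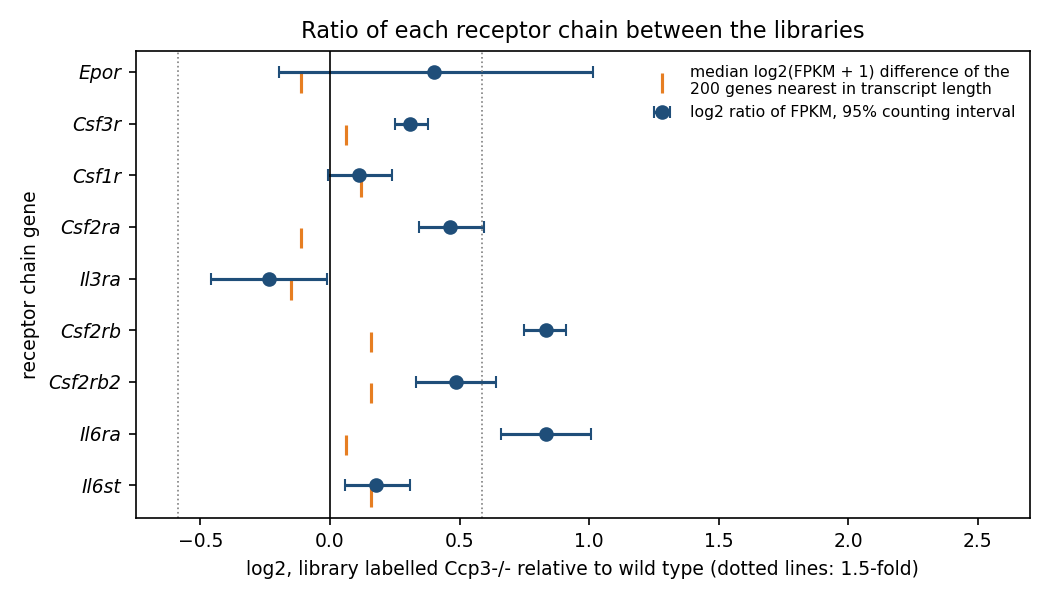
Log2 ratio of FPKM of each receptor chain in the library labelled Ccp3-/- relative to WT (blue points) with 95% counting intervals, and the length background, the median log2(FPKM + 1) difference of 200 genes of similar length (orange marks). Csf2rb and Il6ra lie beyond 1.5-fold (dotted line), Csf1r and Il6st lie on their orange marks, and Il3ra is the 1 chain below 0.

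The interleukin-6 receptor chains differed in how far apart the libraries were. Il6ra, the alpha chain that binds interleukin-6, was listed at 8.36 FPKM in the WT and 14.9 FPKM in the Ccp3-/- library, a ratio of 1.78 (1.58 to 2.01) from about 429 and 706 reads. Il6st, which encodes gp130, the signalling chain used by the whole interleukin-6 family, was listed at 12.02 and 13.6 FPKM, a ratio of 1.13 (1.04 to 1.24). The difference of Il6st, 0.17, was that of genes of its length, for which the median was 0.16. Il6ra kept a difference of 0.70 after the same subtraction. Il6ra was thus below Il6st in the WT library, with a ratio of 0.696 (0.620 to 0.780). In the Ccp3-/- library the ratio was 1.09 (0.992 to 1.20), level within counting error where the length trend was not taken off.

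The balance between partner chains differed between the libraries for interleukin-3 and interleukin-6, while for granulocyte-macrophage colony-stimulating factor it depended on the trend with transcript length. For interleukin-3, the ratio of Csf2rb plus Csf2rb2 to Il3ra was 1.90 in the WT (1.71 to 2.13) and 3.77 in the Ccp3-/- library (3.35 to 4.25), a 1.98-fold difference with an approximate interval of 1.69 to 2.32. With the median of genes of similar length taken off each chain, a setting chosen after seeing the data, it was 1.60-fold (1.36 to 1.87). For granulocyte-macrophage colony-stimulating factor, the ratio of Csf2rb to Csf2ra was 0.742 (0.687 to 0.803) and 0.954 (0.893 to 1.02), a 1.29-fold difference (1.16 to 1.42) that became 1.07-fold (0.962 to 1.18) with the length trend taken off. For interleukin-6, the ratio of Il6ra to Il6st differed 1.57-fold (1.36 to 1.82), and 1.68-fold (1.46 to 1.95) with the length trend taken off. These are ratios of RNA within a library, which any scaling of the whole library leaves as they are but the length trend does not, and they do not give the number of receptors on a cell.

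**Figure D3:**
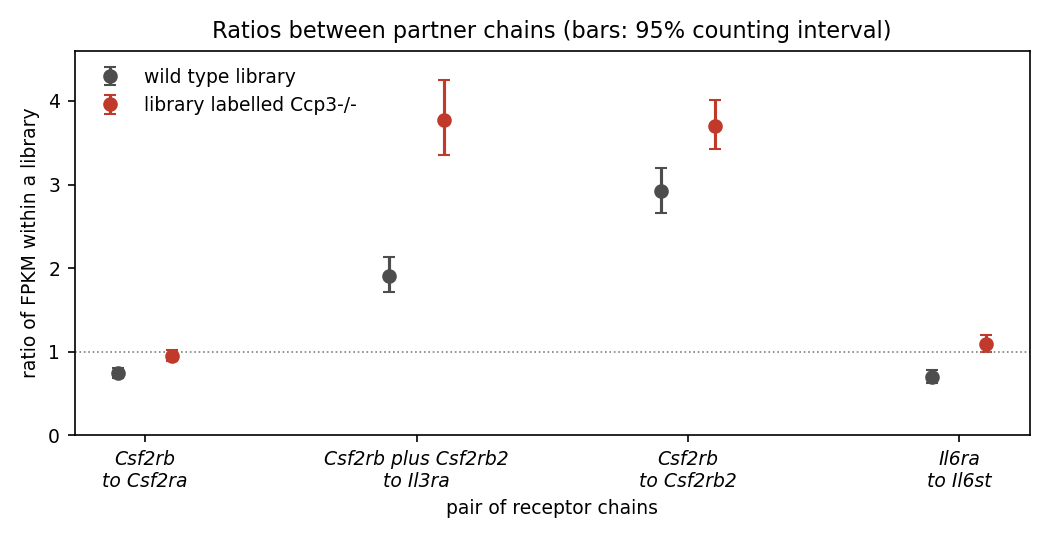
Ratio of FPKM between partner receptor chains within the WT library (grey) and within the library labelled Ccp3-/- (red), with 95% counting intervals and a dotted line at a ratio of 1. The beta chains stood at 1.90 times Il3ra in the WT and 3.77 times in the other library, and Il6ra to Il6st at 0.696 and 1.09.

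Promoter sequences of the chains were searched for motifs of blood cell factors. Whether a motif bears on the direction of any chain was not tested. RefSeq promoter windows of build GRCm38.p6, 250 bases before to 50 bases after the start, matched 7 of the 9 genes. Csf2rb, one of the chains that differed most, and Csf1r had no window and were not searched. Searched on both strands, with matches allowed to overlap, were GAGGAA (core of the site of PU.1, a myeloid and lymphoid factor), TTNNGNAA (sites of the C/EBP factors of granulocytes), AGATAA (the site of red cell and stem cell factors of the GATA family) and TTCNNNGAA (STAT factors). The PU.1 core was found in 4 of the 7, those of Csf3r, Csf2ra, Csf2rb2 and Il6ra, and not in the windows of Il3ra, Il6st and Epor, while 28.3% of all 32851 promoter windows held it. The C/EBP motif was found in 4 of the 7 (Csf2ra, Il3ra, Csf2rb2 and Il6ra) and in 40.7% of all windows. The GATA motif was found in Epor and Il6ra and in 11.2% of all windows, and the STAT motif in Csf2rb2 and in 8.3% of all windows. The motifs were chosen with the values known, and a match is only a run of letters, not a bound site. Shown are the windows of Csf2ra, Csf2rb2 and Il6ra, the 3 with both a PU.1 core and a C/EBP match, and of Il3ra. The windows of Csf3r, Il6st and Epor, also above the WT level, are not shown, and that of Il6st held no match. Sequences run 5′ to 3′ on the gene's strand, with every match in capitals. In Il6ra and Csf2rb2 a PU.1 core lies within a C/EBP match (TTCCTCAA), and in Csf2ra 2 PU.1 cores stand side by side.
Csf2ra (chr19:61228369-61228668, minus strand): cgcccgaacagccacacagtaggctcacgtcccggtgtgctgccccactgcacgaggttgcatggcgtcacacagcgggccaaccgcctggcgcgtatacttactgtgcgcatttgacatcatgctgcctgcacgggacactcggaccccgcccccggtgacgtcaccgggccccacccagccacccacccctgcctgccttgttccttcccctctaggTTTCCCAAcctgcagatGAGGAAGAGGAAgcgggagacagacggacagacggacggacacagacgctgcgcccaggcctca
Csf2rb2 (chr15:78305672-78305971, minus strand): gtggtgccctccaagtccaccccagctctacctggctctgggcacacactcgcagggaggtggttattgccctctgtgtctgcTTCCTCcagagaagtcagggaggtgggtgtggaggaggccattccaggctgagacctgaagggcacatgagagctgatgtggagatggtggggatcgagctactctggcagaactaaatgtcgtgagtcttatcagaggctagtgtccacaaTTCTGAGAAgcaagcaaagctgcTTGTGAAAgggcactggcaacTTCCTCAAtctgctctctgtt
Il6ra (chr3:89913147-89913446, minus strand): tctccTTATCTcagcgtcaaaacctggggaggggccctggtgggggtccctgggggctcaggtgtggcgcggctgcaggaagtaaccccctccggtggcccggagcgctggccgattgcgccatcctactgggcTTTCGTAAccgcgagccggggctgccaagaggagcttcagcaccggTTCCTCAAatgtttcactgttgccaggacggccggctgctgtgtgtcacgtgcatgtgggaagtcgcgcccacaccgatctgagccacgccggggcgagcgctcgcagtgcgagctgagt
Il3ra (chr14:14346245-14346544, plus strand): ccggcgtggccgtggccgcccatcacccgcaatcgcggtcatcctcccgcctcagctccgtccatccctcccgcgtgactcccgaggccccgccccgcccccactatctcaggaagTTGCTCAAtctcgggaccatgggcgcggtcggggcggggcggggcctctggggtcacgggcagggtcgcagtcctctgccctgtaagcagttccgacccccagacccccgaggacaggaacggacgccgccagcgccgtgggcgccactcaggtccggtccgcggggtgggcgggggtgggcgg

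Receptors outside the 9 chains went both ways, with 10 of 22 measured above the WT level, near the 50.8% of all genes tested. Of 28 such chains, 22 averaged 1 FPKM or more, and 3 of these were past 1.5-fold downward and 2 upward. Among all genes tested 6.14% were past it downward and 6.12% upward. The median difference of the 22 was −0.12, which became 0.07 under scaling to equal sums and 0.01 with no filter on low values. Among those averaging 5 FPKM or more, 3 were past 1.5-fold downward and 0 upward, with a median of −0.37. Flt3, the receptor kinase of multipotent and lymphoid progenitors, was listed at 155 FPKM in the WT and 82.5 FPKM in the Ccp3-/- library, a ratio of 0.533 (0.514 to 0.553). Il7r, the receptor chain that lymphoid precursors need, was listed at 10.2 and 4.66 FPKM, a ratio of 0.456 (0.386 to 0.536). These receptors of multipotent and lymphoid cells were thus lower where Csf2rb and Il6ra were higher. Il2rg, the gamma chain common to interleukin-2 and interleukin-7 receptors, stood at 76.9 and 54.6 FPKM, Il10ra had a ratio of 0.656 (0.569 to 0.755), and Il27ra, a partner of gp130, at 9.38 and 6.57 FPKM. The higher pair, named after their values were seen, were low: Ghr at 1.49 and 3.22 FPKM and Il13ra1 at 0.62 and 1.64 FPKM.

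Ligands of these receptors were scarce in the sorted cells. Of 16 ligand genes, 5 averaged 1 FPKM or more, and Epo, Csf3, Il3 and Thpo were listed in neither library. Clcf1, a ligand of the gp130 family, was the 1 ligand past 1.5-fold, at 8.49 FPKM in the WT and 4.57 FPKM in the Ccp3-/- library (ratio 0.538, 0.428 to 0.674). Osm, another gp130 ligand, was listed at 9.19 and 11.1 FPKM, Il11 at 5.38 and 6.10 FPKM, and Flt3l, the ligand of Flt3, at 6.37 and 5.02 FPKM.

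The kinases and factors that carry the signal were close to level. All 4 JAK kinases were within 1.5-fold, with Jak1 at 57.7 and 60.5 FPKM, Jak2, the kinase of Epor and of the beta chain receptors, at 16.3 and 16.9 FPKM, Jak3 at 36.7 and 31.5 FPKM and Tyk2 at 10.8 and 12.5 FPKM. All 7 STAT genes were also within 1.5-fold, with a median difference of 0.09. Stat3, the main factor of gp130 and Csf3r, was listed at 44.4 and 54.6 FPKM, a ratio of 1.23 (1.17 to 1.29). Stat5a and Stat5b, the factors of Epor and the beta chain receptors, were listed at 21.0 and 23.5 FPKM and at 23.1 and 26.9 FPKM. Stat4 was the lowest in ratio, 0.690 (0.621 to 0.766), and the interferon factor Stat2 had a ratio of 0.799 (0.729 to 0.876), while Stat6 stood at 27.3 and 29.2 FPKM.

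Adaptors and kinases next to the receptors were mostly above the WT level. Of 17 such genes 15 had a positive difference, with a median of 0.27, beside 50.8% positive over all genes tested. Vav1, 1 of the 15, was level at 53.89 and 53.9 FPKM. Past 1.5-fold upward were 2 genes, beside 6.12% of all genes tested. That count was 8 under scaling to equal sums, where the median was 0.44 and 12.2% of all genes tested were past 1.5-fold upward. It was 1 under upper-quartile scaling (4.81% of all genes) or length centring (4.96%), and 0 with a pseudocount of 5 FPKM (2.35%). Fgr, a SRC family kinase of myeloid cells, was listed at 4.73 and 7.73 FPKM, a ratio of 1.63 (1.39 to 1.93). Pik3r1, the regulatory subunit of PI3 kinase, was listed at 16.9 and 25.1 FPKM, and Plcg2, the most abundant of the list, at 93.1 and 92.9 FPKM. Many of these transcripts are long, and the median of this list was 0.16 after the length trend was subtracted.

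Negative regulators went both ways, with 2 of 23 past 1.5-fold upward, 2 downward and a median of 0.08. These counts are close to the background, as 6.12% of all genes tested were past 1.5-fold upward and 6.14% downward. Cbl, a ubiquitin ligase that marks activated receptors for degradation, was listed at 6.19 FPKM in the WT and 16.0 FPKM in the Ccp3-/- library, a ratio of 2.58 (2.32 to 2.88). Socs4, of the SOCS family of inhibitors, had a ratio of 2.10 (1.72 to 2.58). Cish, a STAT5-induced inhibitor, was lower at 4.48 and 2.65 FPKM (ratio 0.592, 0.465 to 0.748), and Usp18, which restrains interferon receptors, was lower at 6.27 and 2.10 FPKM; both were named after their values were seen. Socs3, which binds gp130 and Csf3r, was listed at 21.6 and 29.1 FPKM, a ratio of 1.35 (1.23 to 1.47), and the phosphatase gene Ptpn6, the most abundant of the list, at 144 and 112 FPKM.

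Among 9 genes of receptor traffic and shedding, 8 had a positive difference, beside 50.8% of all genes tested. One of the 8, Rnf41, was level at 10.75 and 10.77 FPKM. Past 1.5-fold upward was 1 gene, beside 6.12% of all genes tested, or 2 under scaling to equal sums, beside 12.2%. The median of this list was 0.34, and 0.2 after the length trend was subtracted. Sorl1, a sorting receptor, was listed at 6.31 and 16.2 FPKM, a ratio of 2.57 (2.35 to 2.82). The sheddase genes Adam10 and Adam17, whose products can release Il6ra from the membrane, were listed at 36.7 and 53.1 FPKM and at 16.6 and 21.3 FPKM. Of 20 target genes of STAT5 and STAT3, 3 were past 1.5-fold upward and 1 downward, around a median of 0.14. Among all genes tested 6.12% were past it upward and 6.14% downward. Of these targets, Cish, Socs2 and Socs3 are also negative regulators and Osm a ligand. Cebpb, a factor of emergency granulocyte production, was listed at 10.6 and 21.95 FPKM (ratio 2.06, 1.76 to 2.42) and Cebpd at 8.67 and 13.8 FPKM. Id1, named after its value was seen, was listed at 2.55 and 5.65 FPKM, while the kinase gene Pim1 stood at 75.6 and 106 FPKM and the cyclin gene Ccnd2 at 26.2 and 37.2 FPKM. The target past 1.5-fold downward was Cish, which is set by STAT5. Pim2 was lower within 1.5-fold, at 28.0 and 21.6 FPKM (ratio 0.771, 0.694 to 0.856), as was Junb at 111 and 92.6 FPKM (0.837, 0.793 to 0.884). Of the 20 targets 14 were above the WT level, so the targets in this list did not move one way.

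**Figure D4:**
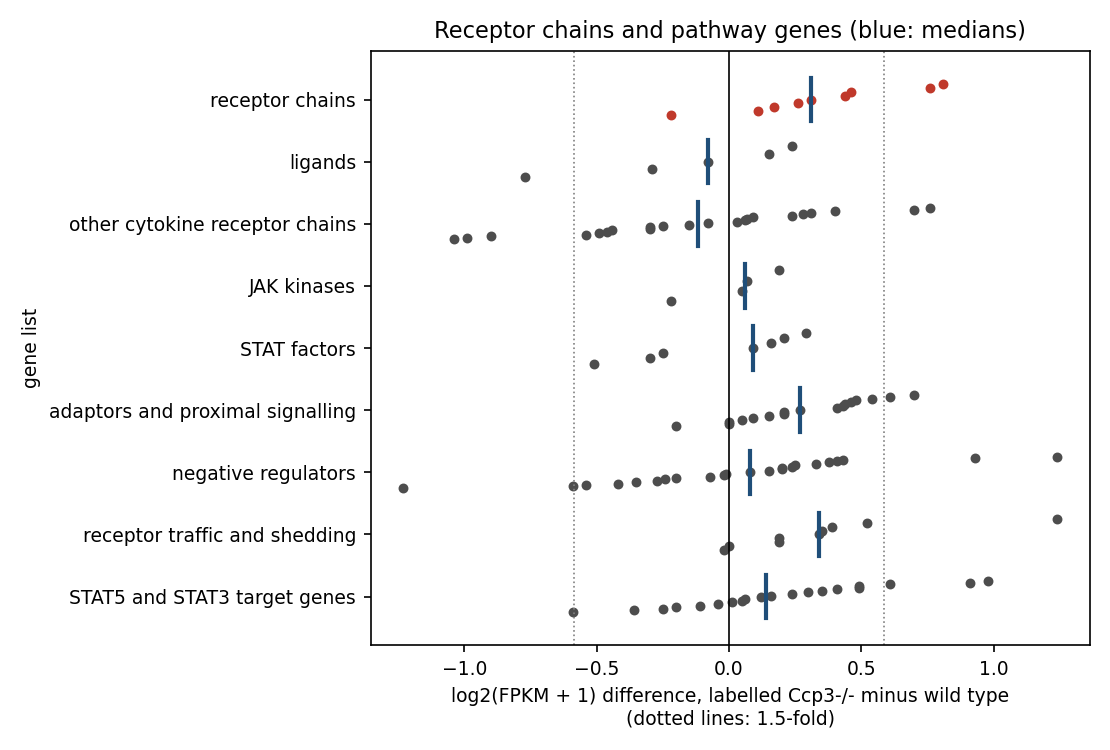
Difference in log2(FPKM + 1) between the library labelled Ccp3-/- and WT for the 9 receptor chains (red) and for each measured gene of 8 pathway lists (grey); blue bars are medians and dotted lines mark 1.5-fold. The receptor chains have a median of 0.31, the other cytokine receptor chains −0.12, and the JAK kinases and STAT factors lie within 1.5-fold.

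Markers of other blood cells differed between the libraries beside these receptors, and their part in the receptor values was not tested. The counts below stand beside 6.12% of all genes tested past 1.5-fold upward and 6.14% downward. Of 19 neutrophil and granulocyte progenitor markers 10 were past 1.5-fold upward and 0 downward, with summed levels of 8819.9 FPKM in the WT and 12315.1 FPKM in the Ccp3-/- library, and none was at 0. Mpo, the myeloperoxidase gene, stood at 1842 and 2792.5 FPKM and Ctsg at 895 and 1832 FPKM, so both libraries held much myeloid RNA beside Csf3r and Csf2ra. Of 16 monocyte and macrophage markers 4 were higher and 1 lower, with sums of 988.9 and 1103.4 FPKM, beside a nearly level Csf1r. Of the 16, 10 were above the WT level. The most abundant of them were Lyz2 at 279 and 348 FPKM, Ly6c2 at 283 and 269 FPKM and Ms4a6c at 100 and 106 FPKM. Of 13 measured B cell markers 11 were lower and 0 higher, with sums over all 14 of 161.9 and 72.7 FPKM, and of 11 measured dendritic cell markers 8 were lower and 0 higher, with sums over all 13 of 367.9 and 218.9 FPKM, beside the lower Flt3 and Il7r. Of 8 measured T cell markers 4 were lower and 0 higher, with sums over all 10 of 47.4 and 30.8 FPKM and Trac listed in neither library. Mast cell, basophil and eosinophil markers had 1 of 9 higher and 1 lower, with sums of 425.1 and 409.4 FPKM and Tpsab1 listed in neither library. Megakaryocyte and platelet markers had 2 of 9 higher and 3 lower, with sums of 209.1 and 231.4 FPKM and Gp6 listed in neither library. Endothelial markers had 2 of 4 lower, with sums of 90.9 and 67.3 FPKM. Long-term stem cell markers had 4 of 14 lower and 0 higher, with sums of 245.1 and 166.2 FPKM. Multipotent progenitor markers, of which Flt3 is one, had 2 of 6 lower, with sums of 1122.6 and 747.6 FPKM.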

How the data were processed

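Each of the 2 deposited files held, for each Entrez gene, RefSeq transcripts, a length in bases and its FPKM, a unit made by the authors, per the file headers. The submitters' processing notes name HISAT, HISAT2, RSEM and mm9, with no versions. The length column, another deposited value, was used as given by the authors. Symbols came from RefSeq (GRCm38.p6), which matched 17169 of 17216 identifiers; no gene coordinates were taken from it, and promoter windows are printed in its build. A gene missing from a file was taken as 0.

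Depth was estimated from transcripts of 150 to 1000 bases with 1 listed model: FPKM times length, less 42 and 38 bases, fell near multiples of 64.9 and 70.3, with 82.3% of 413 and 87.9% of 398 values within 0.15 of a whole number. Step and offset were fitted to these same values. Ratio intervals are exact conditional intervals, except those between 2 ratios, which are normal approximations on the log scale. The procedure was tested on simulated data. The members and all lists (8 pathway lists, 11 marker lists) were chosen with earlier results of these data known. Named were the 9 chains, Agbl3, list members averaging 5 FPKM or more by size of difference or abundance, and those said to be named after their values were seen; not all that the rule allows are printed, and some genes of the lists are not reported here. Tools were scipy 1.17.1, biopython 1.88, matplotlib 3.10.9, numpy 2.4.6 and pandas 2.3.3 under Python 3.11.15.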

Additional observations from a re-analysis of the deposited data

How the results depend on the processing

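With 1 library per genotype nothing here has a replicate check, and leaving out a library was not possible. No paired analysis was possible because each genotype has 1 library. The count of receptor chains at least 1.5-fold higher, 2, was 1 with a pseudocount of 5 FPKM, where Il6ra came to 0.57, 4 under scaling to equal FPKM sums, where Csf2ra and Csf2rb2 joined, and 0 at a threshold of 2-fold; it stayed at 2 under the other alternatives, and 0 chains were lower under each. Of all genes, 6.12% were past 1.5-fold upward in the main setting, 12.2% under equal sums and 2.35% with that pseudocount, and 1.21% passed 2-fold. Equal sums moved the median of all genes to 0.18 and that of the chains to 0.50. The higher share of all 1.5-fold calls went from 49.9% to 79.2% under equal sums, while upper-quartile scaling brought it to 39.2%. Signs turned for Csf1r (−0.01) and the JAK kinase median (−0.11) after length centring, for the ligand median (0.07) and the other receptor median (0.07) with equal sums, and for the latter with no filter (0.01). In all, 31 of 45 alternative values of single chains stayed within their counting interval. Few reads limit Epor and Agbl3.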
